A study of Mus musculus with 6 samples.

Results

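The circadian clock genes examined here were the 10 genes *Arntl*, *Clock*, *Npas2*, *Per1*, *Per2*, *Per3*, *Dbp*, *Tef*, *Nr1d1* and *Nr1d2*, of the 20284 genes that could be named on the arrays. They were chosen by symbol and not by a threshold on their values, though earlier results of these data were known. Every array probe whose transcript accession belongs to one of these genes was taken. This gave 11 probes, with 2 for *Dbp* and 1 for each other gene. The arrays held RNA of liver, ovary and uterus of immature female CD-1 mice, an outbred strain, labelled as 24 days old. The mice had received peanut oil (control) or 50 mg per kg body weight of BHPF (fluorene-9-bisphenol, a substitute for bisphenol A) by gavage each day for 3 days. Each of the 6 groups was 1 array of RNA pooled from 3 mice, so there was no second pool in any group and no test of BHPF within a tissue. The methods describe collecting all 3 tissues from the mice of each group, with 3 mice used for each condition, so the pools of different tissues may hold the same mice. The mice were kept under an even light-dark cycle with food at all times, and the hour at which they were killed is not given in the sources used here.

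The mammalian clock is a loop of transcription and repression that runs in nearly every cell and takes about a day. *Arntl* (BMAL1) pairs with *Clock*, or with its relative *Npas2*, and the pair binds E-box sequences to switch on the Per genes, the *Nr1d* (REV-ERB) genes and the transcription factors *Dbp* and *Tef*. The PER proteins repress the pair that made them, and the REV-ERB proteins repress *Arntl*, so in most tissues *Arntl* and *Npas2* peak when *Dbp* and *Nr1d1* are low. Tissues at different phases, or tissues killed at different hours, therefore tend to differ in opposite directions for the *Arntl* side and for the genes it switches on. The comparisons below ask whether these sides of the loop moved apart between control and BHPF pools, and between tissues.

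The sequences that carry these links were read for the 250 bases before each annotated start (RefSeq, GRCm38.p6). A promoter was found for 9 of the 10 genes, 14 promoters in all, and none was listed for *Per2*. Searched on both strands, the E-box CACGTG lay in 6.02% of all 32851 promoters and in those of 2 of these genes, *Per1* and *Tef*. The D-box TTATGTAA, the type of element bound by DBP, TEF and their relatives, lay in 0.819% of all promoters and was found in 1 of these genes, *Per3*, at 2 places. The REV-ERB half-site TAGGTCA lay in 2.23% of all promoters and in none of these. The windows of 120 bases around the matches follow, because they show the letters through which the *Arntl* side, and then *Dbp* and *Tef*, could reach the genes measured here. Capitals mark the match, each window is written 5′ to 3′ on the strand of its gene, and the windows do not show that any factor was bound in these tissues.
Per1, chr11:69098726-69098845, + strand: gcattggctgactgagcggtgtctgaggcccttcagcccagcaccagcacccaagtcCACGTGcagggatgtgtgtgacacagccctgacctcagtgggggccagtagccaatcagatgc
Tef, upstream start, chr15:81802489-81802608, + strand: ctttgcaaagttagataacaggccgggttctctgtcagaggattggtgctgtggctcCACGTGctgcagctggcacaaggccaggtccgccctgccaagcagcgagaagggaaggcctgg
Tef, downstream start, chr15:81811219-81811338, + strand: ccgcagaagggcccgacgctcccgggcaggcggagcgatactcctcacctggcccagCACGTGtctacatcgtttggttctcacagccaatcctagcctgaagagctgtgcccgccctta
Per3, chr4:151044784-151044903, - strand: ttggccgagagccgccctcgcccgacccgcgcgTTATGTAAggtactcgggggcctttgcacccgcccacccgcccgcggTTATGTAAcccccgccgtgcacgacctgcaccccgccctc
The E-box began 166 bases before a downstream start of *Per1*, and 127 and 138 bases before the starts of *Tef*. The promoter listed for the other start of *Per1* held none of these matches. The D-boxes began 205 and 158 bases before the start of *Per3*.

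A level is given below as the log2 intensity of a probe minus the 75th percentile of all 55681 probes on the same array, so that 0 is a bright probe and each unit is a doubling. Levels of different probes were not set against each other, since probes differ in brightness. Of the 11 probes, 9 that covered 8 genes were well above background on all 6 arrays, and no probe was saturated. *Npas2* was well above background only on the control ovary and control uterus arrays, and *Per3* on every array except that of the BHPF ovary. Between 61.3% and 74.6% of all probes were well above background on an array. The summed level of the 7 liver markers found was 8.20 and 8.11 on the liver arrays and between 1.11 and 4.93 on the others. That of 8 ovarian markers was 5.49 and 5.57 on the ovary arrays and between 1.57 and 1.94 on the others, and that of 8 uterine markers was 5.96 and 5.90 on the uterus arrays and between −0.34 and 4.26 on the others. Each tissue thus carried the most of its own markers. With 1 array for each group, the only error that could be measured was that between spots of 1 probe on the same array. It gave a log2 ratio of 2 single spots an SD of 0.16 in liver, 0.15 in ovary and 0.16 in uterus, and it does not include the difference between pools of mice.

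**Figure D1:**
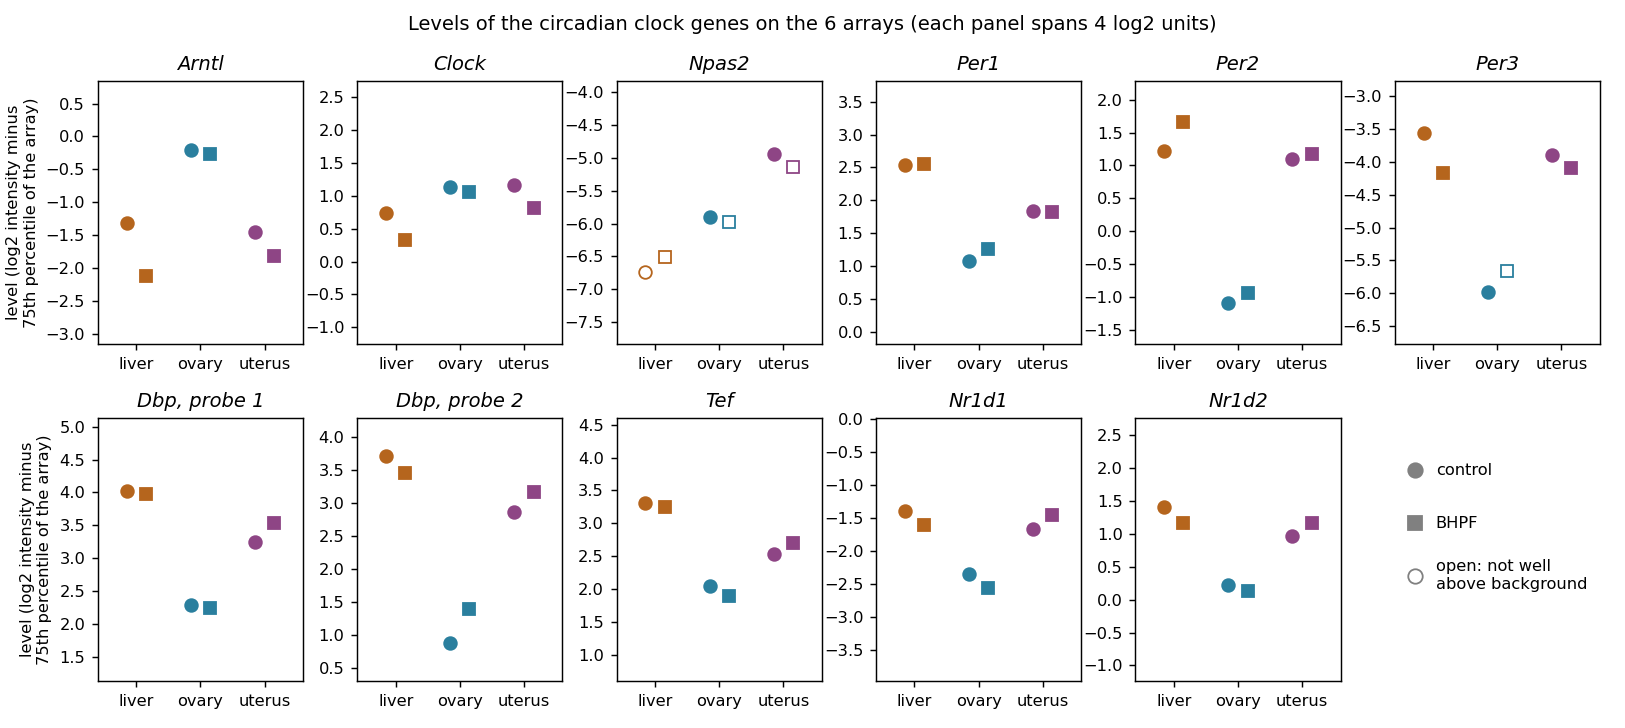
Level of each clock gene probe (vertical axis, log2 intensity minus the 75th percentile of the array) in liver, ovary and uterus (horizontal axis), with circles for control pools, squares for BHPF pools and open symbols where the probe was not well above background. In every panel but those of Clock and Npas2 the ovary pair lies clear of the other pairs, above them for Arntl and below them for the genes of the other side.

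In the liver, *Arntl*, the gene whose product drives the loop, was at −1.31 in the control pool and −2.11 in the BHPF pool, a log2 ratio (BHPF over control) of −0.80. Its partner *Clock* was at 0.73 and 0.33, a log2 ratio of −0.41. Both were lower with BHPF by more than 2 SD of the spot error (0.32 in liver), but *Clock* was at −0.25, within it, under normexp background correction. *Npas2* was not well above background on either liver array and was not evaluated. Of the 15538 genes evaluated in liver, 393 (2.53%) had a ratio as low as that of *Arntl* or lower, and 1387 (8.93%) one as low as that of *Clock* or lower.

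The hepatic genes on the other side did not move as 1 group. *Per2*, a repressor that also responds to feeding and body temperature, was at 1.21 in control liver and 1.66 with BHPF, a log2 ratio of 0.44. *Per3*, which carries the D-boxes printed above, was at −3.56 and −4.18, a log2 ratio of −0.61. Both were past 2 SD of the spot error, in opposite directions. *Per3* was at −0.37 under normexp background correction, and *Per2* at 0.13 after scaling to the 50th percentile, which moved the median of all liver genes to −0.30. *Per3* is a dim probe, and spots at levels below −3 varied with an SD of 0.15 (control liver) and 0.16 (BHPF liver), against 0.092 and 0.11 for brighter spots. *Per1* was at 2.54 and 2.55, and *Tef* at 3.31 and 3.25. These 2 genes, which hold the E-boxes printed above, differed by less than 2 SD. *Dbp*, a bright output of the loop, was at 4.03 and 3.98 with its first probe and at 3.72 and 3.46 with its second. *Nr1d1* was at −1.39 and −1.60 and *Nr1d2*, the other REV-ERB gene, at 1.40 and 1.17, both lower with BHPF by less than 2 SD.

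None of the 9 clock genes evaluated in liver differed 2-fold or more, where 4.74% of all genes evaluated did. At 1.5-fold there were 2, *Arntl* and *Per3*, where 11.9% of all genes differed that much. The arm difference, defined as the median log2 ratio of *Per1*, *Per2*, *Per3*, *Dbp*, *Tef*, *Nr1d1* and *Nr1d2* minus that of the evaluated genes among *Arntl*, *Clock* and *Npas2*, was 0.45 in liver, from medians of −0.16 and −0.61. A constant added to all genes of an array does not change it. With *Per1* to *Nr1d2* at −0.16 and *Arntl* with *Clock* at −0.61, the medians of both sides were below 0 in this scaling. The sign of each median, unlike their difference, depends on the scaling of the arrays. Of the 9 genes, 2 were above 0, *Per1* and *Per2*, and 7 were below. Without the filter on dim probes, which brings in *Npas2*, the difference was 0.25.

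In the ovary most of the clock genes were nearly the same in both pools. *Arntl* was at −0.20 in control and −0.26 with BHPF, and *Clock* at 1.14 and 1.05. *Per1* was at 1.08 and 1.26, *Per2* at −1.09 and −0.94, and *Tef* at 2.05 and 1.90. *Nr1d1* was at −2.35 and −2.56, and *Nr1d2* at 0.22 and 0.13. The probes of *Dbp* disagreed: the first was at 2.28 and 2.24 and the second at 0.88 and 1.39, which gave a mean log2 ratio of 0.24. *Npas2*, at −5.90 in control, and *Per3*, at −5.98, were not well above background with BHPF, and their bounds allowed no difference to be given. No gene passed 2 SD of the spot error of single spots (0.30) as the mean of its probes, but the second probe of *Dbp* alone did, at 0.51. For the mean of 2 probes, as in *Dbp*, that limit is too wide, and no narrower one was computed. The own values of *Per3* differed by 0.31, with that of the BHPF pool not well above background. None of the 10 genes was called 2-fold different, where 1.09% of all genes were, but *Npas2* and *Per3* entered this count as 0 and not as measured ratios. The arm difference was 0.06, and the median of each side also counted 1 of these placeholders. The median of the side from *Per1* to *Nr1d2* was 0, the value given to *Per3*. The arm difference was 0.23 with the authors' table, or with each probe's own value in place of a bound.

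In the uterus both partners were again lower in the BHPF pool. *Arntl* was at −1.45 in control and −1.82 with BHPF, a log2 ratio of −0.37, and *Clock* at 1.16 and 0.82, a ratio of −0.35. These signs follow the conditions under which the scanner files were deposited. In the authors' normalized table, each of the 2 uterus columns holds the scanner values of the other condition (100% of 38450 single-spot probes within 0.001), so every uterine ratio turns its sign if the headings of that table are the right ones. *Arntl* and *Clock* passed 2 SD of the spot error (0.32), and 1057 (6.54%) and 1223 (7.56%) of the 16167 genes evaluated had a ratio as low or lower. With the headings of the table all uterine ratios turn, and these become the genes as high or higher. Under normexp background correction *Clock* was at −0.61. *Npas2* was at −4.94 in control and not well above background with BHPF, a bound of −0.13.

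The uterine genes switched on by the pair were mostly a little higher in the BHPF pool. *Dbp* was at 3.25 and 3.54 with the first probe and 2.87 and 3.18 with the second, a mean log2 ratio of 0.30. *Nr1d1* was at −1.66 and −1.45, *Nr1d2* at 0.97 and 1.16, and *Tef* at 2.53 and 2.70. *Per1*, at 1.84 and 1.82, and *Per2*, at 1.10 and 1.17, were close to equal, and *Per3* was at −3.89 and −4.10. Each of these 7 ratios was within 2 SD of the spot error of single spots, as was each probe of *Dbp* alone. That limit is wider than one for a mean of 2 probes, such as that of *Dbp*, for which none was computed. None of the 10 clock genes differed 2-fold, where 3.09% of all genes evaluated did. The arm difference was 0.51, from medians of 0.17 and −0.35, and it became −0.51 with the table as headed.

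**Figure D2:**
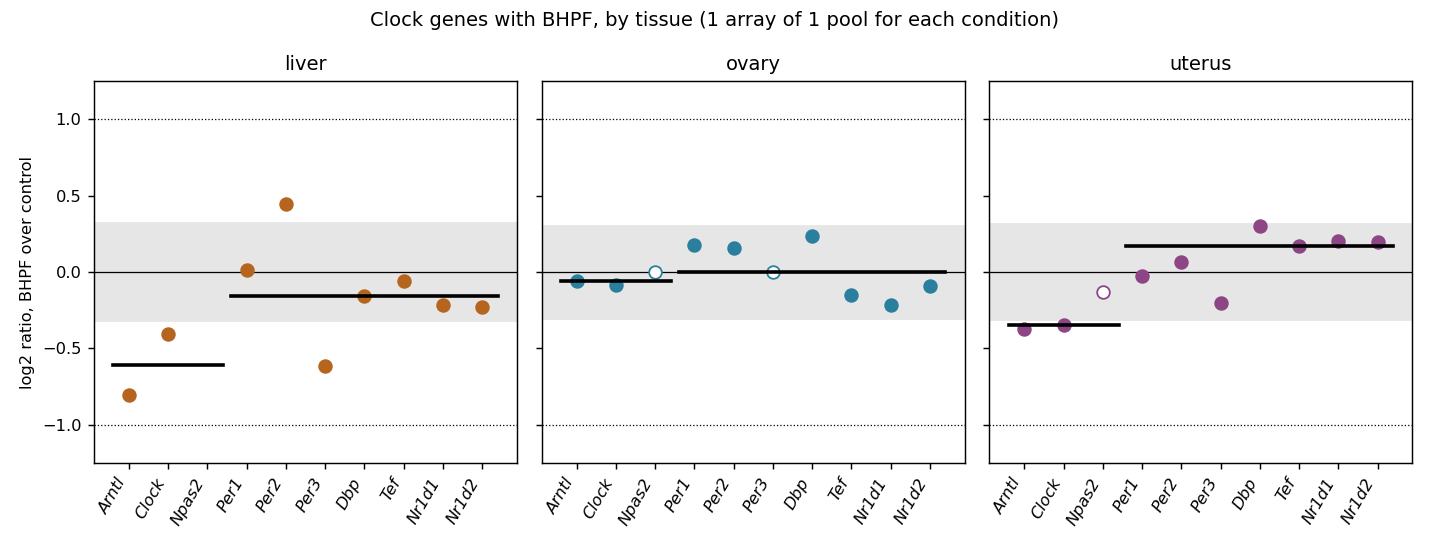
Log2 ratio of BHPF over control (vertical axis) for each clock gene in each tissue, with the grey band at 2 SD of the spot error, dotted lines at 2-fold, thick bars at the median of each side of the loop and open symbols for bounds. Arntl and Clock lie below the band in liver and uterus (−0.80 and −0.41, −0.37 and −0.35) and inside it in ovary, and no gene reaches 2-fold. The signs in the uterus follow the deposited scanner files.

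Values of other kinds differed between the same arrays. The summed level of 6 neutrophil markers was 5.70 in control liver and 4.55 in BHPF liver (all 6 well above background on both), 3.71 and 3.50 in ovary, and 4.31 and 4.10 in uterus. This sum rests largely on *Csf3r*, which was nearly equal in the pools of ovary (3.47 and 3.46) and uterus (3.83 and 3.86). The median level of the 6 markers went from 2.88 in control liver to 0.32 in BHPF liver, from −1.70 to −4.30 in ovary and from −0.05 to −1.05 in uterus. *S100a8*, an abundant neutrophil protein, was at 3.26 and 0.54 in liver, −0.72 and −3.85 in ovary and 0.86 and −0.66 in uterus. On the BHPF ovary and BHPF uterus arrays 1 of the 6, *Ngp*, was not well above background. In bulk samples, fewer cells of a type and less RNA for each cell cannot be told apart. The part of these cells in the lower *Arntl* and *Clock* was not tested. The summed level of the 7 liver markers was 1.11 in control uterus and 4.93 in BHPF uterus. Over 408 probes at least 64-fold brighter in control liver than in control ovary and control uterus, the median excess of the BHPF uterus array over the control uterus array was 0.675% of the BHPF liver signal. It was 3.89% over the 20 of them with the highest levels in control liver. A share of 0.675% would supply between 0.261% and 1.12% of the BHPF uterus signal of a clock gene probe, and one of 3.89% between 1.51% and 6.45%. After subtraction of the smaller share *Arntl* was at −0.38 and *Clock* at −0.35 as log2 ratios, and the largest move was that of *Per1*, from −0.03 to −0.04. The larger share was not subtracted. The summed level of 4 adipocyte markers was 0.70 in control uterus and −2.01 in BHPF uterus, with 2 of the 4 well above background on each, and its part was not tested.

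The other genes of the clock and its outputs were followed through lists. All 16 other core clock genes were evaluated in each tissue and none differed 2-fold. Over all genes evaluated, 4.74% differed that much in liver, 1.09% in ovary and 3.09% in uterus. The median log2 ratios of these 16 genes were 0.07 in liver, 0.10 in ovary and 0.05 in uterus, against medians of 0, 0.01 and 0.00 over all genes. The brightest in liver included *Bhlhe40*, a repressor that competes for E-boxes, at 2.44 in control and 2.22 with BHPF, and the repressor *Cry2*, at 1.76 and 1.80. Of 13 clock output genes, 1 differed 2-fold in liver, where 4.74% of all genes did. This was *Rgs16*, a regulator of G-protein signalling, at 1.06 in control and 2.07 with BHPF, a log2 ratio of 1.01. None of the 12 evaluated differed 2-fold in ovary. In uterus 1 of 13 did, *Cyp7a1*, the rate-limiting enzyme of bile acid synthesis, which was at −3.75 with BHPF and not well above background in control, a bound of 2.05. *Cyp7a1* was at 3.31 in control liver, and the part of the liver signal on this array in its difference was not tested.

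Cues that reset peripheral clocks were examined the same way. Of 11 glucocorticoid-induced genes, 9 were below 0 in liver, where 47.6% of all genes were, with a median log2 ratio of −0.31 beside 0 over all genes. None was 2-fold different in liver, where 4.74% of all genes were. The metallothionein *Mt1* was at 4.58 in control liver and 3.70 with BHPF. *Tat*, a glucocorticoid-induced enzyme of tyrosine breakdown, was at 4.73 and 4.39. The 2 genes of this list above 0 in liver were *Fkbp5* and *Zbtb16*, with log2 ratios of 0.18 and 0.23. The median of this list was 0.11 in ovary and 0.04 in uterus. There *Tat* was the 1 gene past 2-fold, beside 3.09% of all genes, at −4.03 in control uterus and −2.23 with BHPF. It is a liver marker as well, and the part of the liver signal in its difference was not tested. No gene of the temperature list (6 evaluated in each tissue), the fasting list (9 in liver and 8 in ovary and in uterus) or the feeding list (8 in each) differed 2-fold. The share of all genes that did was 4.74% in liver, 1.09% in ovary and 3.09% in uterus. The liver medians of these lists were 0.02, 0.15 and −0.07.

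The largest differences of these genes were between tissues. The control and BHPF arrays of a tissue entered an additive limma fit with terms for tissue and treatment over the 6 arrays, which left 2 residual degrees of freedom and tested 41316 probes, each with Benjamini-Hochberg adjustment over all of them. This fit was chosen after the values were seen. It treats the control and BHPF pools of a tissue as replicates once the mean treatment effect is removed. For *Npas2*, below background in liver and with BHPF, the fit is not reported. In *Per3* the BHPF ovary value entered although it was not well above background.

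The ovary was the tissue in which *Arntl* and the genes it switches on stood apart, but not *Clock*. *Arntl* was higher in ovary than in uterus, by 1.24 in the control pools and 1.56 in the BHPF pools, and the fit gave a log2 difference of 1.40 ± 0.22 (SE, limma adjusted p = 0.0174). *Per2* was lower in ovary, with differences of −2.20 in the control pools and −2.11 in the BHPF pools and a fitted difference of −2.15 ± 0.16 (limma adjusted p = 0.00292). Of the 10 probes other than that of *Npas2*, 1 was called higher in ovary, 8 were called lower and 1 was not called, where 26.9% of all probes tested were called in either direction. The one not called was *Clock*, at 0.11 ± 0.15 (limma adjusted p = 0.623).

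All genes of the E-box side were lower in ovary than in uterus. The fitted log2 differences were −1.83 for *Per3*, −1.13 and −1.89 for the probes of *Dbp*, −0.90 for *Nr1d1*, −0.89 for *Nr1d2*, −0.66 for *Per1* and −0.64 for *Tef* (limma adjusted p from 0.00951 to 0.0437). In each of these probes the control pools and the BHPF pools gave the same sign. At a simple 2-fold threshold, 4 of 10 clock genes differed between the control arrays (24.7% of all genes) and 6 of 9 between the BHPF arrays (25.8%). *Npas2*, which replaces *Clock* in some tissues, was 1.95-fold higher in control uterus than in control ovary, the opposite direction to *Arntl*. The calls rested on few arrays: without the control ovary, the control uterus or the BHPF uterus array only 1 of the 8 lower calls stayed, that of *Per2*, and 3 stayed without the BHPF ovary array. The call of *Arntl* was lost when any of these 4 arrays was left out, and when the uterus arrays were exchanged (adjusted p = 0.0509). With the 50th percentile in place of the 75th, 4 lower calls were made. The sign of each of these 9 differences was the same under every alternative of the fit.

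Between liver and ovary the same pattern was seen from the other side, with the ovary arrays shared between the comparisons. All 8 probes of the E-box side were higher in liver, where 63.4% of all probes were called in either direction. At a simple 2-fold threshold, 7 of 10 clock genes differed between the control arrays (44.2% of all genes) and 7 of 9 between the BHPF arrays (44.6%). The largest fitted differences were 2.46 ± 0.23 for the second probe of *Dbp* (limma adjusted p = 0.00201) and 2.45 ± 0.16 for *Per2* (0.000827), and the smallest was 0.96 ± 0.17 for *Nr1d1* (0.0107). *Arntl* was lower in liver by 1.48 log2 units (SE 0.22, limma adjusted p = 0.0066) and *Clock* by 0.57 (SE 0.15, 0.031). The call of *Nr1d1* was lost without the control ovary array (adjusted p = 0.0569) and without the BHPF ovary array (0.0878), where that of *Nr1d2* was lost as well (0.0573). The difference of *Nr1d1* was 0.58 with the 75th percentile of probes well above background on all arrays, and quantile normalization gave 0.49 for *Tef*, 0.82 for *Per1* and 0.85 for the first probe of *Dbp*, all still called. The call of *Clock* was lost with the 50th percentile, with the uterus arrays exchanged and without any of 5 arrays, all but that of the control liver.

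Liver and uterus were closer to each other. None of the 10 clock genes evaluated differed 2-fold between the control arrays, where 42.6% of all genes did, and none of 9 between the BHPF arrays, where 43.7% did. Scaling to the 50th percentile made these counts 4 and 1. *Per1*, *Tef* and the first probe of *Dbp* were higher in liver, by 0.71, 0.66 and 0.61 log2 units (limma adjusted p = 0.0137, 0.0214 and 0.0324), and the other 7 probes were not called, where 57.1% of all probes were. These calls depended on the scaling of the arrays, which moved the number of higher calls between 0 and 6, and leaving out 1 array gave 0 to 2. *Arntl* differed by −0.08 ± 0.22 and *Nr1d1* by 0.06 ± 0.17. *Npas2* was at least 1.61-fold higher in control uterus than in control liver.

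**Figure D3:**
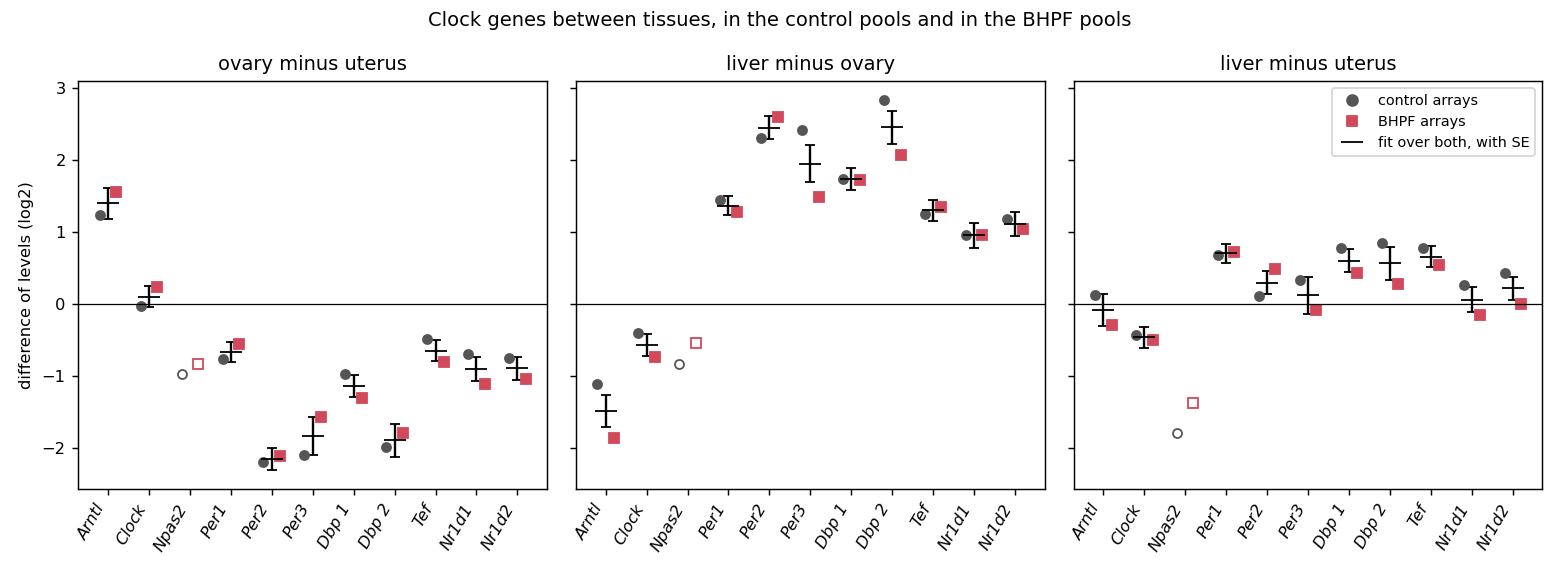
Difference of levels between tissues (vertical axis, log2) for each clock gene probe, in control pools (circles), BHPF pools (squares) and the fit over both with its SE (bars); open symbols mark Npas2, which was below background on 4 arrays and has no fit shown. Ovary minus uterus is positive for Arntl and negative for the probes from Per1 to Nr1d2, liver minus ovary is the reverse, and liver minus uterus lies nearer 0.

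Other core clock genes were read in the same fit. Of 24 probes for 16 genes, 3 were called higher in ovary than in uterus and 8 lower, beside 26.9% of all probes called in either direction. *Hlf*, which belongs to the family of *Dbp* and *Tef*, was at −2.07 in control ovary, −0.04 in control uterus, −2.03 in BHPF ovary and 0.46 in BHPF uterus, a fitted log2 difference of −2.26 ± 0.17 (limma adjusted p = 0.00323). *Bhlhe40*, itself an E-box gene, was lower in ovary by 1.44 log2 units (limma adjusted p = 0.00995). *Cry2* differed by −0.64 (0.0297), *Rora* by −0.82 (0.0435) and *Rorb* by −1.26 (0.00878). The probes of *Fbxl21*, an F-box protein that acts on the cryptochromes, disagreed, at −2.28 (0.00383) and −0.28 (0.306).

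The genes higher in ovary were *Cry1*, a repressor that peaks late in the cycle, at 0.55 ± 0.13 (limma adjusted p = 0.0469), and both probes of *Timeless*, whose mammalian protein is best known from DNA replication, at 1.19 and 1.33 (0.00852 and 0.00819). *Nfil3*, which opposes DBP at D-boxes, was at 0.73 ± 0.18 (0.0542) and did not pass the test. *Ciart*, a repressor that usually runs with *Dbp* and *Nr1d1*, was at 0.19 ± 0.13 (0.329). Among 17 probes of 13 output genes, 2 were called higher in ovary and 3 lower, a share near the 26.9% over all probes. The lower ones were the deubiquitinase *Usp2*, an E-box gene, at −1.81 ± 0.14 (0.00351), *Por* at −0.94 (0.0231) and *Elovl3* at −2.22 (0.0404). *Elovl3* was not well above background in ovary. The higher ones were *Noct*, at 1.18 ± 0.24 (0.0344), and a probe of *Tfrc*, at 0.73 ± 0.15 (0.0333). With 1 pool for each group and the hour of killing not given, the level that a tissue always has and the phase of its clock cannot be told apart.

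**Figure D4:**
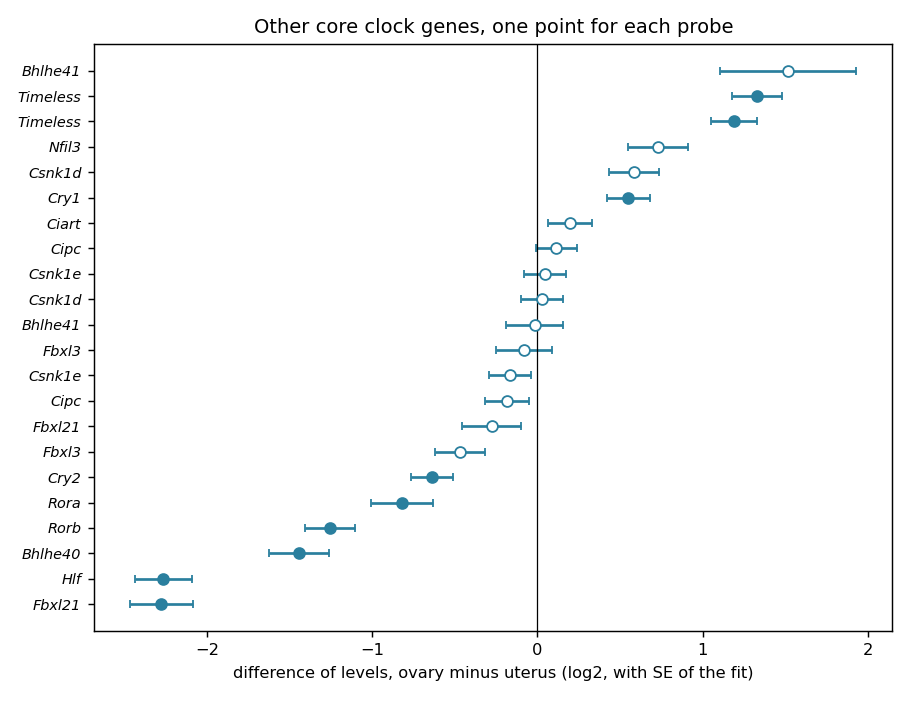
Fitted difference between ovary and uterus (horizontal axis, log2, with SE) for each probe of the other core clock genes reported here (vertical axis), filled where the adjusted p was below 0.05. Hlf and 1 probe of Fbxl21 lie lowest (−2.26 and −2.28), and the filled points above 0 are Cry1 and both probes of Timeless.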

How the data were processed

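Total RNA of liver, ovary and uterus was pooled from 3 mice for each group and hybridized by the authors to 6 one-colour Agilent arrays, which lay on 1 slide. The control arrays held positions 1, 2 and 3 of the slide, and the BHPF arrays positions 5, 6 and 7. Treatment and position on the slide therefore cannot be told apart. The deposited scanner files give each spot's intensity on a linear scale, background-subtracted and detrended by Agilent Feature Extraction (9.1 per the labels, 11.5.1.1 per the file headers). A second deposited file is the authors' GeneSpring table, whose log2 values equal the log2 intensity minus a constant for each array. It was checked against the scanner files and served as an alternative. Its methods name a percentile shift without the percentile.

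Control spots and outlier spots were left out, log2 intensities were averaged over the spots of a probe, and the 75th percentile of the array was subtracted. Probes were named through their accession and RefSeq (26762 of 55681 probes), and the probes of a gene were averaged. Evaluation in a pair of arrays required a probe well above background on 1 or both, and a ratio of 2-fold was called a difference. Where the other array was not well above background, the ratio is a bound against its lowest signal well above background, or against the probe's own signal there if higher, and it is given as 0 where the order would turn. The summed level of a marker list is the log2 of the sum of its genes' linear levels. The tissue fit used limma 3.58.1 in R 4.3.3 on probes well above background on at least 2 arrays, and the procedures were tested on simulated data. The simulated arrays varied by spot error only, so they cannot show how the fit performs where pools of mice differ. Depth does not apply to arrays, and their number limits the precision.

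The clock genes, the lists and the tests were chosen with earlier results of these data known. All 10 clock genes are named. From each list the genes named are those past 2-fold or among its 3 brightest, and the others were chosen after their values were seen. A gene of the lists enters their counts but is not reported here. Probe coordinates were not used, since the array design names build mm9. Array alternatives were other scalings, background correction, filters, probe rules and the authors' table.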

Additional observations from a re-analysis of the deposited data

How the results depend on the processing

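Leaving out the dim-probe filter changed the liver arm difference from 0.45 to 0.25, and over all alternatives it ran from 0.25 to 0.55. In ovary it was 0.23 with the authors' table and 0.23 with each probe's own value in place of a bound, and its range was 0.01 to 0.23. In uterus it was −0.51 with the table as headed and 0.49 to 0.53 otherwise. The cause was not tested beyond the construction of each alternative. Scaling to the 50th percentile moved the median of all liver genes to −0.30, and 1 clock gene, *Arntl*, then differed 2-fold in liver, while a threshold of 1.5-fold gave 2. With normexp background correction the sign of *Nr1d2* turned in liver and uterus and that of *Per3* in uterus, and the brightest probe alone turned the sign of *Dbp* in ovary.

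The clock genes 2-fold different between control liver and control ovary numbered 7, and 4 after quantile normalization. Between control liver and control uterus there were 0, and 4 with the 50th percentile, 1 with the 75th percentile of probes well above background on all arrays and 1 with own values. Between control ovary and control uterus there were 3 to 4 over all alternatives, between BHPF ovary and BHPF uterus 4 to 6, and between BHPF liver and BHPF ovary 5 to 8. Between BHPF liver and BHPF uterus there were 0, and 1 with the 50th percentile and 1 without the filter.

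In the additive fit, with alternatives added after the data were seen, the 50th percentile gave 4 probes lower in ovary than in uterus, 1 lower in liver than in ovary and 6 higher in liver than in uterus. The 75th percentile of probes well above background on all arrays, and quantile normalization of the 6 arrays, each gave 0 higher and 1 lower in liver than in uterus. Exchanging the uterus arrays gave 0 higher in ovary than in uterus and 1 lower in liver than in ovary. Leaving out 1 array at a time gave 0 to 1 higher and 1 to 8 lower in ovary than in uterus, 6 to 8 higher and 1 to 2 lower in liver than in ovary, and 0 to 2 higher and 0 to 0 lower in liver than in uterus. No paired analysis was possible because each group is 1 array, which leaves no replicate numbers to pair; the additive fit already compares tissues within each treatment. No replicate could be left out within a group.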

Other observations

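Over the 13706 genes well above background on all arrays, those whose 3 log2 ratios (BHPF over control in liver, ovary and uterus) lay closest to those of *Arntl* were *Pde7b*, *Lpcat2*, *Nedd9*, *Mmp24* and *Cd33*, at Euclidean distances from 0.118 to 0.147 log2 units. The log2 ratios of *Pde7b* were −0.79 in liver, 0.04 in ovary and −0.44 in uterus, beside −0.80, −0.06 and −0.37 for *Arntl*. The genes closest to *Dbp* were *Gm4984*, *Grrp1*, *Porcn*, *Tmsb4x* and *Clstn3*, at distances from 0.0293 to 0.0473. Each gene was compared over 3 pairs of arrays only.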
